A study of Arabidopsis thaliana with 8 samples.

Results

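CYP71B21 (AT3G26190) and CYP84A4 (AT5G04330) are Arabidopsis genes for cytochromes P450, and each is named alone by 1 probe set of the array, 257632_at and 245710_at. They are 2 of the 22746 probe sets outside the array controls. Among genes that a probe set names alone, they are 2 of the 23 whose P450 symbol carries a subfamily letter. P450 genes under other symbols were not counted. The pair was chosen on signals of these same arrays, so the levels and differences of both genes are given as a description, with no test. The other genes and lists were also chosen with earlier results of these data known, so their adjusted p values are no independent test. Transcript levels were measured with Affymetrix arrays on RNA from Arabidopsis protoplasts, plant cells freed of their walls, with 2 arrays in each of 4 groups. The SND1XVE control and VND7XVE control groups received cycloheximide, an inhibitor of protein synthesis, and the SND1XVE estradiol and VND7XVE estradiol groups received cycloheximide plus estradiol. All 4 groups therefore share cycloheximide, and all carry 1 of the estradiol-responsive constructs, SND1XVE or VND7XVE, named after the factors SND1 and VND7. The design asked which genes these factors activate directly, without new protein. The labels give no age, tissue of origin or promoter, and do not say whether replicates were separate cultures, so the spread may be technical.

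Cytochromes P450 are haem enzymes that use molecular oxygen to oxidise small molecules, and in plants most are anchored in the endoplasmic reticulum and draw electrons from a P450 reductase. The CYP71 family is large in plants and many of its members act in the synthesis of defence compounds. CYP84A4 belongs to the same family as CYP84A1 (FAH1), the ferulate 5-hydroxylase that leads to syringyl lignin. CYP84A4 is known to hydroxylate a phenylpropanoid aldehyde on the way to arabidopyrones, a group of α-pyrone metabolites. SND1 and VND7 are NAC transcription factors known as switches of secondary wall formation, SND1 in fibres and VND7 in vessels, whose walls are lignified through the phenylpropanoid pathway.

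CYP71B21 stood high in 1 group, VND7XVE cells with estradiol. Its signal there was 1891.0 and 1908.3 intensity units on the 2 arrays. In the VND7XVE controls it was 62.0 and 61.5. The SND1XVE controls gave 71.9 and 67.7, and the SND1XVE cells with estradiol gave 81.6 and 96.7. The lower VND7XVE estradiol array was 19.6 times the highest of the other 6 arrays, so this group did not overlap with any other.

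**Figure D1:**
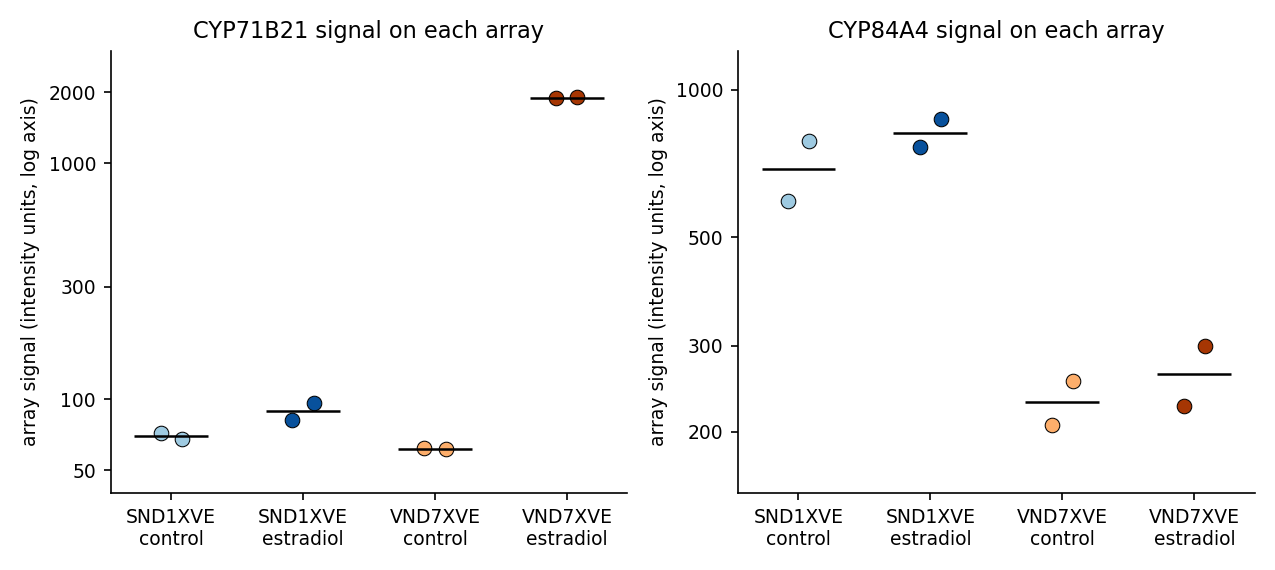
Signal of CYP71B21 (left) and CYP84A4 (right) on each of the 8 arrays, in intensity units on log axes that differ between the panels; points are arrays and lines are means of 2 arrays. CYP71B21 lies near 1900 on the VND7XVE estradiol arrays and between 61.5 and 96.7 elsewhere, and CYP84A4 lies between 593.5 and 868.9 in SND1XVE and between 206.4 and 299.9 in VND7XVE.

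The mean signal of CYP71B21 was 61.8 ± 0.35 (SD, n = 2) in VND7XVE controls and 1899.7 ± 12.2 with estradiol, a ratio of 30.8. On the scale of log2(signal + 16), used for all differences because it damps the scatter of low signals, the VND7XVE estradiol effect was 4.62 ± 0.18 (moderated SE from limma), or 24.6-fold. This effect was the 57th highest among the 14768 probe sets that passed the filter on low signal, and the 30th among the 8100 of them that name 1 gene. With pseudocounts of 1 and 64 it was 4.92 and 3.97. Its array pairs agreed closely, with a coefficient of variation of 0.573% in VND7XVE controls and 0.644% with estradiol.

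In SND1XVE, CYP71B21 differed little between the treatments. Its mean signal was 69.8 ± 2.97 (SD, n = 2) in controls and 89.2 ± 10.7 with estradiol, a ratio of 1.28. Both estradiol arrays lay above both control arrays. The gene's own replicate spread was a residual SD of 0.08 on the log2 scale, and the difference was 0.29 ± 0.18 (moderated SE). It was 0.19 without SND1XVE estradiol replicate 2 and 0.39 without replicate 1, and 0.19 also after centring each array on its median. The estradiol effect in VND7XVE exceeded that in SND1XVE by 4.33 ± 0.25 on the log2 scale, the 24th highest such difference among the 14768.

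Without estradiol the lines were close in CYP71B21. The VND7XVE controls stood at -0.14 ± 0.18 (moderated SE) relative to the SND1XVE controls, and the arrays did not overlap. This difference was smaller than its moderated SE, which borrows spread from all probe sets. It was larger than the gene's own residual SD of 0.08. With estradiol the VND7XVE cells were higher by 4.19 ± 0.18. In order of mean signal the groups ran from VND7XVE controls through SND1XVE controls and SND1XVE estradiol to VND7XVE estradiol. The first step was smaller than its moderated SE. The second was 0.29 with a moderated SE of 0.18, and the last was the large one.

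CYP84A4 followed the line and not the treatment. The SND1XVE control arrays gave signals of 593.5 and 785.6, and the SND1XVE estradiol arrays 763.0 and 868.9. The VND7XVE control arrays gave 206.4 and 254.7, and the VND7XVE estradiol arrays 226.1 and 299.9. The control and estradiol arrays of each line overlapped, and the 4 arrays of SND1XVE all lay above the 4 of VND7XVE.

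Its mean signal was 689.6 ± 136 (SD, n = 2) in SND1XVE controls and 231 ± 34.2 in VND7XVE controls, a ratio of 2.99. With estradiol the means were 816 ± 74.9 and 263 ± 52.2, a ratio of 3.10. On the log2 scale VND7XVE stood at -1.51 ± 0.17 (SE) relative to SND1XVE in controls and at -1.59 ± 0.17 with estradiol. These were the 165th and 167th lowest of the 14768 values in their comparisons. AT5G04320, whose gene model in the reference overlaps that of CYP84A4, is named alone by no probe set, and its part in the signal was not tested. The comparisons between lines use the same arrays as the estradiol effects, so the 5 differences given for a gene are not independent of each other.

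The estradiol effects of CYP84A4 were of the order of its replicate spread, a residual SD of 0.23 on the log2 scale. The difference was 0.25 ± 0.17 (SE) in SND1XVE and 0.17 ± 0.17 in VND7XVE. Leaving out VND7XVE estradiol replicate 2 turned the second to -0.02. The effects differed between the lines by -0.08 ± 0.24, a value whose sign turned when any of 4 single arrays was left out, with a range of -0.27 to 0.12. The coefficient of variation of the array pairs was 9.18% to 19.8% for CYP84A4 and 0.573% to 12.0% for CYP71B21, higher for CYP84A4 in 3 of the 4 groups and lower in SND1XVE with estradiol (9.18% against 12.0%).

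**Figure D2:**
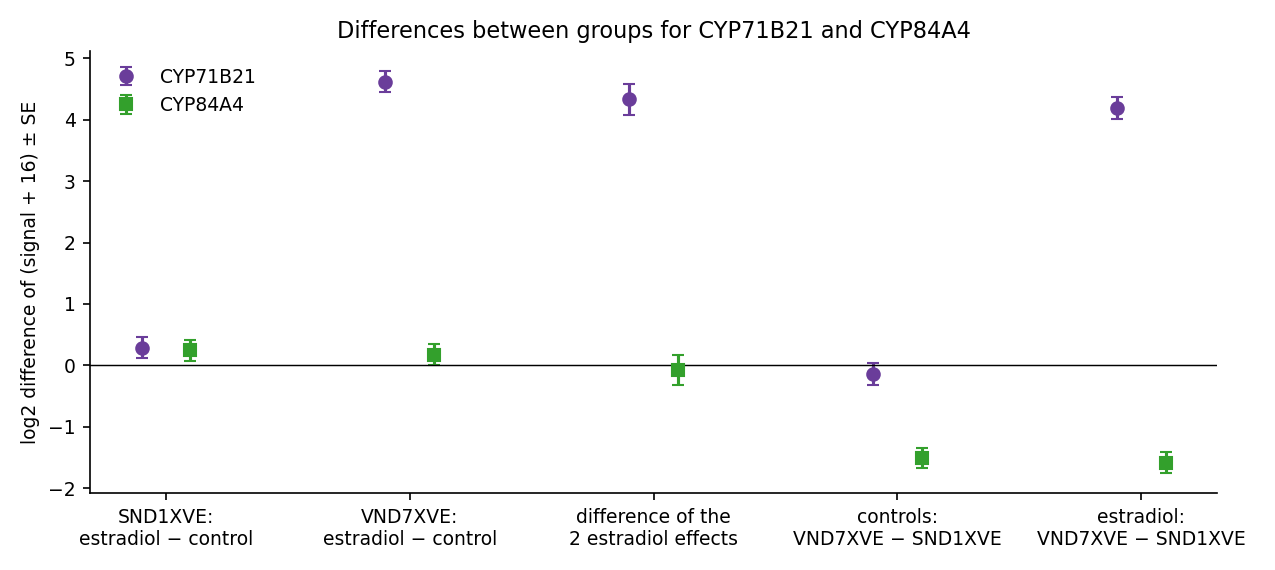
Differences of log2(signal + 16) for CYP71B21 (circles) and CYP84A4 (squares) in 5 comparisons, with bars for the moderated SE. CYP71B21 departs from 0 in the comparisons that include the VND7XVE estradiol arrays (4.62, 4.33 and 4.19), and CYP84A4 in those between the lines (-1.51 and -1.59).

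Several values moved with the lines, and their part in the difference of CYP84A4 was not tested. The photosynthesis gene LHCB4.1, of a light-harvesting antenna protein, was higher in VND7XVE, in controls by 1.04 ± 0.10 and with estradiol by 0.94 ± 0.10 (SE, limma adjusted p = 1.04e-06 and 2.07e-06). Rubisco activase (RCA) had no call, at 0.24 and 0.14 (adjusted p = 0.0952 and 0.356). These are 2 of 6 mesophyll markers drawn up; neither was at 0, and their summed signal was 4855.2 to 5433.5 over the SND1XVE arrays and 7905.9 to 8362.9 over the VND7XVE arrays. Actin control probe sets at the 3' and 5' ends of the transcript, whose ratio tracks how intact the RNA is, gave 2.80 to 3.30 in SND1XVE and 3.72 to 4.64 in VND7XVE, and the GAPDH ratio overlapped between the lines. In such bulk samples fewer cells of a type and less RNA per cell cannot be told apart, nor can a line and anything handled together with it.

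The lines were far apart across the array. In the controls 13.7% of the tested probe sets were called higher in VND7XVE and 13.8% lower, at a limma adjusted p under 0.05. With estradiol 14.1% were higher and 16.5% lower. Median signals were 99.0 to 102.0 on control arrays and 108.3 to 109.9 on estradiol arrays, and centring on the median moved the median estradiol effect of all tested probe sets from 0.02 to -0.08 in SND1XVE and from -0.03 to -0.15 in VND7XVE. Of other marker genes, IRX15 of secondary wall xylan, 1 of 6 xylem markers measured, had signals of 4.2 to 6.6 on control arrays and 556.0 to 641.1 on estradiol arrays. Of 3 guard cell markers 2 were measured, with summed signals of 54.9 to 154.1. Estradiol was given only to cells with 1 of the constructs, so what the hormone does alone and what the factors do cannot be told apart.

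The other CYP71B genes give the background for the pattern of CYP71B21. Of the 18 other CYP71B genes named alone, 7 passed the filter. Among the 23 P450 genes counted above, the 14 that did not pass had signals of 0.6 to 58.8. In SND1XVE 2 of the 7 rose and 1 fell (limma, adjusted p under 0.05), against 9.37% and 7.06% of all tested probe sets, with a median effect of -0.12 against 0.02 for all. In VND7XVE 2 rose and 0 fell, against 8.15% and 6.37%, with a median of -0.03 for the 7 and for all. At an unadjusted p under 0.05, 1 of the 7 fell there.

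CYP71B5 rose in both lines. Its signal went from 177.9 and 157.3 to 512.5 and 552.4 in SND1XVE, and from 211.1 and 182.1 to 921.0 and 861.3 in VND7XVE. The effects were 1.58 ± 0.14 and 2.10 ± 0.14 (SE, limma adjusted p = 6.34e-07 and 1.39e-08), and the difference between them, 0.52 ± 0.20, did not pass the threshold (adjusted p = 0.242). Like CYP71B21 it was highest in VND7XVE with estradiol, but its SND1XVE effect was 1.58 where that of CYP71B21 was 0.29.

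CYP71B22, the next gene after CYP71B21 in the reference gene order, rose by 0.51 ± 0.16 in SND1XVE and by 0.54 ± 0.16 in VND7XVE (limma, adjusted p = 0.0354 and 0.03). Its SND1XVE signals were 251.7 and 284.0 without and 397.1 and 378.5 under estradiol. Those of VND7XVE were 140.6 and 167.6 without and 230.2 and 229.1 under it. Arrays of control and estradiol did not overlap in either line, but neither call held with quantile normalization (adjusted p = 0.0943 and 0.0924), with median centring (0.0826 and 0.072), without the filter (0.078 and 0.0708) and when single arrays were left out: in SND1XVE without any 1 of its 4 arrays (0.0522 to 0.168), and in VND7XVE without control replicate 1 (0.236) or estradiol replicate 1 or 2 (0.143 and 0.119). Like CYP84A4 it was lower in VND7XVE, by -0.74 ± 0.16 in controls and -0.72 ± 0.16 with estradiol (adjusted p = 0.00227 and 0.00254). On the other side of CYP71B21 the reference places AT3G05005, a long non-coding RNA gene that no probe set names alone.

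CYP71B6, known to act on indole-3-acetonitrile, fell by 0.46 on the log2 scale in SND1XVE (limma, adjusted p = 0.00139), from 13883.5 and 14239.4 to 10149.5 and 10286.6. In VND7XVE it stood at -0.24 ± 0.09 (adjusted p = 0.0918), which passed the threshold after median centring (0.00963). The remaining 4, CYP71B23, CYP71B24, CYP71B26 and CYP71B28, had no call in either estradiol comparison, with values of -0.33 to 0.18 in SND1XVE and -0.27 to 0.17 in VND7XVE. CYP71B24 passed the threshold in SND1XVE without control replicate 2 (-0.71, adjusted p = 0.00328), and so did CYP71B23 (-0.44, adjusted p = 0.0373).

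The estradiol effects of these 7 relatives did not differ between the lines past the threshold. In the test of the difference 0 of the 7 were called, 1 with an unadjusted p under 0.05, with values of -0.45 to 0.52. Across the array 1.97% of probe sets were called with a more positive effect in VND7XVE and 1.09% with a more positive effect in SND1XVE. The value of CYP71B21 in the same comparison, 4.33, lay beyond this range, and that of CYP84A4, -0.08, within it. Between the lines, 1 of the 7 was called higher and 1 lower in VND7XVE controls, against 13.7% and 13.8% of all tested probe sets, which is near that background. With estradiol 3 were called higher and 1 lower, against 14.1% and 16.5%, the higher ones then being CYP71B5, CYP71B23 and CYP71B24 and the lower one CYP71B22. The call of CYP71B24 in controls (0.51, adjusted p = 0.0415) was lost under 10 alternatives and stood at 0.13 (adjusted p = 0.554) without SND1XVE control replicate 2. With estradiol the call of CYP71B23 (0.44, adjusted p = 0.0198) was lost without the filter (0.0676), without the limma trend (0.123), without SND1XVE estradiol replicate 1 (0.161) and without VND7XVE estradiol replicate 1 (0.141). That of CYP71B24 (0.81, adjusted p = 0.00233) was lost without the trend (0.0526).

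**Figure D3:**
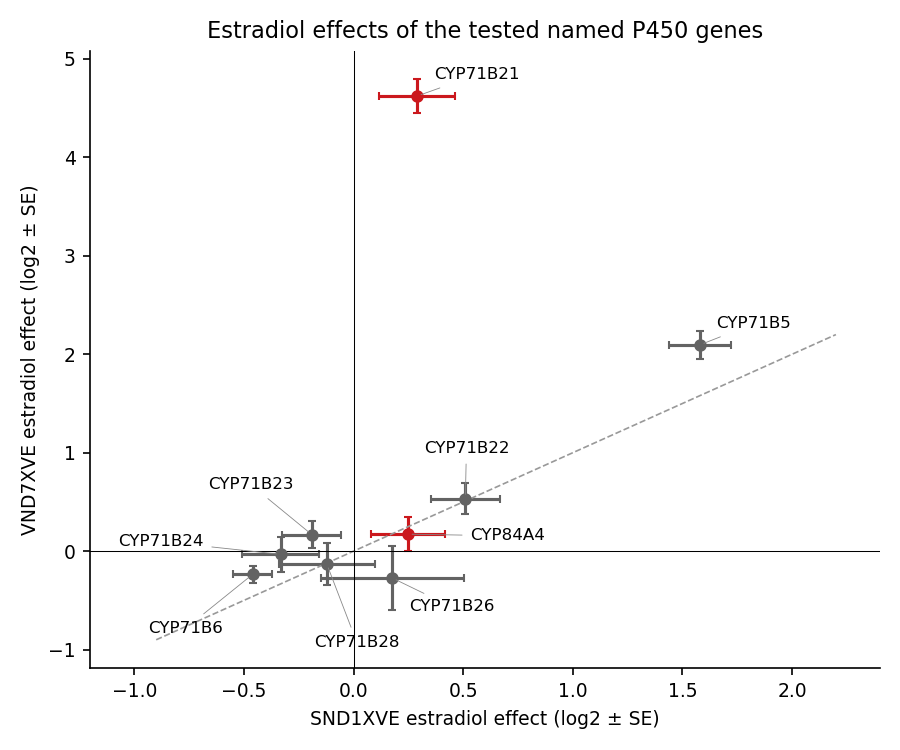
Estradiol effect in SND1XVE (horizontal) against VND7XVE (vertical), both as log2 differences with moderated SE bars. CYP71B21 and CYP84A4 are in red, and the 7 other CYP71B genes that passed the filter in grey. The dashed line marks equal effects. CYP71B21 stands at 0.29 and 4.62, CYP71B5 at 1.58 and 2.10, and the others lie within 0.54 of 0 in both directions.

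Of the genes that act with CYP84A4, few are named alone by a probe set in the annotation. LigB (AT4G15093), a ring-opening dioxygenase that acts after CYP84A4 in arabidopyrone synthesis, was measured, and CYP84A1 was not analysed here. LigB gave 96.7 and 123.3 on the SND1XVE control arrays and 213.1 and 201.1 on the estradiol arrays. The VND7XVE arrays gave 72.0 and 78.1 without estradiol and 88.9 and 78.1 under it. The SND1XVE arrays all lay above the VND7XVE arrays, as those of CYP84A4 did. With estradiol LigB was lower in VND7XVE by -1.17 ± 0.22 (limma, adjusted p = 0.000797), and in controls the value was -0.46 ± 0.22 (adjusted p = 0.139).

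LigB also rose with estradiol in SND1XVE, by 0.83 ± 0.22 (limma, adjusted p = 0.015), where CYP84A4 stood at 0.25 ± 0.17. This call was lost without the filter (adjusted p = 0.0616) and without SND1XVE control replicate 1 (0.0937), estradiol replicate 1 (0.113) or estradiol replicate 2 (0.0664). In VND7XVE the value was 0.13 ± 0.22 (adjusted p = 0.794), and the difference between the lines, -0.70 ± 0.31, did not pass the threshold (adjusted p = 0.326). Over the 8 arrays the log2 signals of LigB and CYP84A4 correlated at Pearson's r = 0.85, and at 0.77 without the 2 arrays farthest from the median of CYP84A4. This r was only the 653rd highest with CYP84A4 among the 8099 other tested probe sets that name 1 gene. That of CYP71B22, also lower in VND7XVE, was 0.87, the 522nd. Such an r includes the gap between the lines, so no particular relation of LigB and CYP84A4 is read from it.

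Of 24 genes drawn up for the phenylpropanoid and monolignol pathway, which supplies the aldehyde that CYP84A4 uses, 3 were named alone and all 3 were tested. HCT, which forms the pathway's hydroxycinnamoyl shikimate esters, and CCR2, a cinnamoyl-CoA reductase, fell in both lines, and ALDH2C4, which oxidises coniferaldehyde and sinapaldehyde, had no call (0.11 and -0.06, limma adjusted p = 0.58 and 0.804). CCR2 signals went from 7129.7 and 6809.6 to 4051.3 and 4073.9 in SND1XVE, and from 5562.3 and 5976.4 to 3970.2 and 3969.0 in VND7XVE. The log2 effects of CCR2 were -0.78 ± 0.09 and -0.54 ± 0.09 (SE, limma adjusted p = 1.27e-05 and 0.000512). Those of HCT were -0.53 ± 0.10 and -0.69 ± 0.10 (limma adjusted p = 0.000837 and 7.61e-05). The share of all tested probe sets that fell was 7.06% and 6.37%, and with 3 genes named the counts describe these genes, not the pathway. The list was drawn up with earlier results of these data known, so these p values are no independent test. In controls HCT was higher in VND7XVE by 0.28 (adjusted p = 0.0419) and CCR2 stood at -0.27 (adjusted p = 0.0355), and both calls were lost when any 1 of the 4 control arrays was left out (0.102 to 0.215 and 0.0636 to 0.238), without the filter (0.0522 and 0.0574) and without the limma trend (0.114 and 0.11). With estradiol 0 of the 3 differed between the lines, also at an unadjusted p under 0.05. CYP84A4 in contrast had its gap of -1.51 and -1.59 between the lines.

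**Figure D4:**
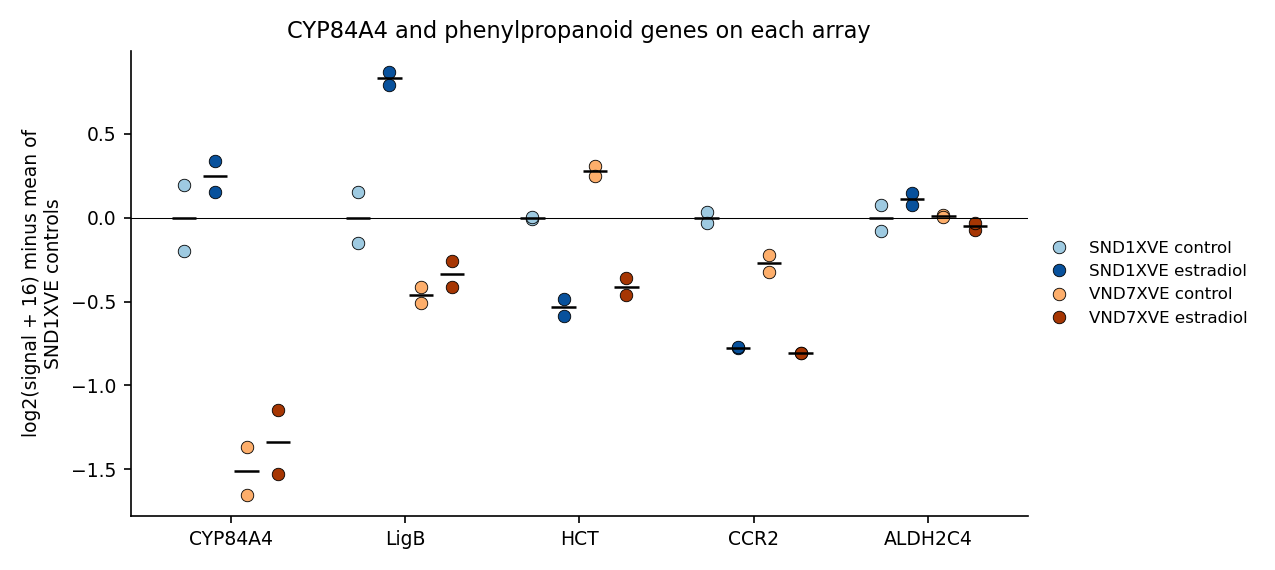
Log2(signal + 16) of CYP84A4, LigB, HCT, CCR2 and ALDH2C4 on each array, relative to the mean of the SND1XVE controls of the same gene; points are arrays and short lines are means of 2 arrays. CYP84A4 and LigB lie lower in VND7XVE than in SND1XVE, while HCT and CCR2 lie lower with estradiol in both lines.

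The profiles most like each gene were found by Pearson's r of log2(signal + 16) over the 8 arrays, among the 8099 other tested probe sets that name 1 gene. All points of such an r share the arrays and their scaling, and it is given as a description. For CYP71B21 the 5 highest were AT1G10810 (r = 0.9996), AT5G40020 (0.997), AT5G19870 (0.9963), AT3G52900 (0.994) and AT2G22270 (0.9937). Their mean signals on the VND7XVE estradiol arrays were 787.8, 2833, 1523.5, 1461.9 and 267, in that order. Outside the VND7XVE estradiol arrays the first 4 had signals of 1.5 to 25.9 and AT2G22270 had 37.2 to 46.4, and all 5 passed the filter through those 2 arrays alone. Without the 2 VND7XVE estradiol arrays, the farthest from its median, r ranged from 0.03 to 0.94, over signals of these 5 genes that all lay below the filter's level, so that no likeness is read from the other 6 arrays. Least like CYP71B21 were LPR2 (r = -0.97) and AT1G69330 (-0.97), with VND7XVE effects of -0.47 and -0.76.

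For CYP84A4 the 5 highest were AT4G38260 (r = 0.9894), AT1G34380 (0.9862), AT2G29995 (0.9851), AT1G32260 (0.9818) and AT4G26240 (0.9804). In controls they stood at -0.81, -0.94, -0.53, -0.79 and -0.68 in VND7XVE relative to SND1XVE, each nearer to 0 than the -1.51 of CYP84A4. Leaving out the 2 arrays farthest from its median left r at 0.983 to 0.993. These arrays form 2 clusters, 1 for each line, so that r states the gap between lines more than a relation within them. Of the 5 names 2 stayed after median centring, against 4 or 5 with quantile normalization and with pseudocounts of 1 and 64. Least like CYP84A4 were AT2G25450 and AT5G24500 (r = -0.99 for both). Relative to SND1XVE controls they stood at 0.54 and 0.47 in VND7XVE controls. Both were picked on these same arrays, so no test is given. CYP71B21 and CYP84A4 themselves correlated at -0.44.

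**Figure D5:**
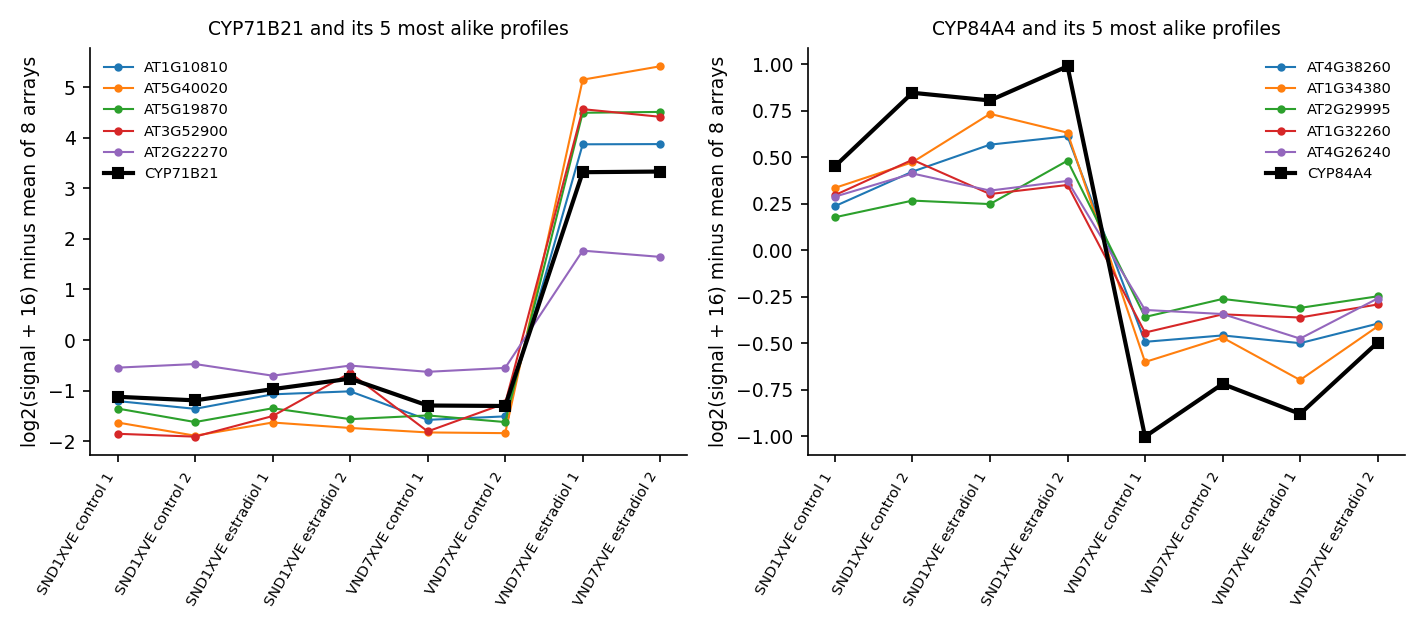
Log2(signal + 16) minus the mean of the 8 arrays, for CYP71B21 (left, black) and CYP84A4 (right, black) with the 5 most alike profiles of each (colours); lines only link the arrays of a gene. The left profiles are high on the 2 VND7XVE estradiol arrays, and the right profiles are higher on the 4 SND1XVE arrays than on the 4 VND7XVE arrays.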

How the data were processed

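The authors deposited, for every array, linear signal intensities by probe set, which the submitters' processing notes credit to GCOS without a version or settings. Trimmed by 2%, the mean intensity was 500.0 or 500.1 on all 8 arrays, so the values had been scaled and were used as deposited. Replicate arrays correlated at 0.982 to 0.988 (log2 signals). The number of arrays limits the precision.

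Groups and replicate numbers came from the sample titles. Probe sets were named from GEO's platform annotation with symbols updated through RefSeq genes (TAIR10.1, used for names and neighbours only): 13513 name 1 gene, 503 several, and 13436 of the former matched. Gene coordinates served only to see whether neighbouring gene models overlap, and no sequence was used. Whether transcripts of related genes contribute to a probe set was not tested.

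Probe sets above the array's 40th percentile on at least 2 arrays were tested, 14768 in all. Both CYP71B21 and CYP84A4 exceeded it on all 8 arrays. On log2(signal + 16), limma 3.58.1 in R 4.3.3 fitted 4 group means (lmFit, eBayes with intensity trend, 4 residual degrees of freedom), two-sided, with Benjamini-Hochberg adjustment over all tested probe sets; a gene is called at an adjusted p under 0.05. The moderated SE borrows spread from all probe sets. The procedure was tested on simulated data. Figures were made with Python 3.11.15 and matplotlib 3.10.9.

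The genes and lists were chosen with earlier results of these data known. Named are the 5 most and 2 least alike profiles, the measured genes of the lists, the largest called P450 changes whose arrays do not overlap, and the adjacent genes. Of 3 P450 reductase and cytochrome b5 genes, 4 epidermis and 3 phloem markers, 0 are named alone. Alternatives were pseudocounts of 1 and 64, quantile normalization, median centring, no filter, the 60th percentile, no trend, the replicate number as a block, and leaving out each array; for the likeness ranking the scaling alternatives were chosen after seeing the data. Sample columns not used: 0.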

Additional observations from a re-analysis of the deposited data

How the results depend on the processing

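For CYP71B21 the VND7XVE estradiol effect of 4.62 became 4.92 and 3.97 with pseudocounts of 1 and 64 and 4.51 after median centring. The difference between the effects, 4.33, became 4.58 and 3.77 with these pseudocounts and 4.23 to 4.44 when single arrays were left out. The difference between the lines with estradiol, 4.19, became 4.40 and 3.68, and 4.09 to 4.30. The SND1XVE effect, 0.29, was 0.19 with a pseudocount of 64 and after median centring, and 0.19 to 0.39 without single arrays. For CYP84A4 the VND7XVE effect of 0.17 ranged from -0.019 (VND7XVE estradiol replicate 2 left out) to 0.37. Its difference between the effects, -0.08, ranged from -0.27 to 0.12 and was 0.12, 0.02, 0.07 and 0.12 without SND1XVE control replicate 1, SND1XVE estradiol replicate 2, VND7XVE control replicate 2 and VND7XVE estradiol replicate 1. Of the recomputed values of both genes, these 5 turned sign, 15 moved by more than the residual SD and 140 by less or not at all. Many of the 140 could not move. The filter, the trend and the replicate block leave differences of group means unchanged, as does leaving out an array of a group not compared. The count of 140 is therefore no measure of stability.

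Called P450 genes in VND7XVE numbered 1 in place of 2 after quantile normalization, without the filter, and without VND7XVE control replicate 1, estradiol replicate 1 or estradiol replicate 2 (range 1 to 2), which is the loss of CYP71B22; after median centring CYP71B6 passed in its place. These P450 counts leave out CYP71B21 and CYP84A4, for which no call is given. Counts over all probe sets without the trend were 1584 in SND1XVE, 1326 in VND7XVE and 226 for the difference, which was 291 without the filter. Without single arrays they ranged from 1608 to 2296, from 1237 to 2254, from 202 to 446, from 2570 to 4100 for the control lines and from 2948 to 4801 for the lines with estradiol. They moved by over 1.5 times without SND1XVE estradiol replicate 1 (1608), VND7XVE control replicate 1 (1237 and, for the control lines, 2599), VND7XVE control replicate 2 (2570), VND7XVE estradiol replicate 1 (1253, 202 and 2948) and VND7XVE estradiol replicate 2 (231). The causes were not tested.

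No shared shift of same-numbered arrays was seen: their deviations from the group means correlated at -0.031 to 0.024 between groups. Whether same-numbered arrays were prepared together is not stated in the labels. With the replicate number as a block, 2457 and 2169 probe sets were called in place of 2427 and 2144, the calls of the P450 and phenylpropanoid lists numbered the same, and all values of CYP71B21 and CYP84A4 were the same.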

Other observations

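A probe set that names CYP71B20 and CYP71B19 together, and so cannot be given to 1 of them, had SND1XVE signals of 907.7 and 885.0 without and 963.8 and 1058.6 under estradiol. Its VND7XVE signals were 1337.2 and 1349.4 without and 1644.6 and 1759.9 under it. All VND7XVE arrays lay above all SND1XVE arrays, the opposite order to CYP71B22. The log2 estradiol effect was 0.17 ± 0.11 in SND1XVE and 0.34 ± 0.11 in VND7XVE (SE, limma adjusted p = 0.333 and 0.0427). CYP718, a P450 gene whose name lacks a subfamily letter and which therefore fell outside the list, had signals of 2.5 to 4.5 on the 8 arrays. CYP71 and CYP59, which encode cyclophilins under similar symbols, were not counted as P450 genes.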
